A study of Mus musculus with 17 samples.

Results

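Clones of tumour cells labelled as p53 knockout (KO clones) were compared with tumour lines that still carry mutant p53 (TL1). The titles label both groups as first-generation tumour lines, and the term tumour lines stands for TL1 below. The comparison takes 2 KO clones and 6 TL1 lines, 8 of the 17 libraries of the series, chosen by their titles. Every one of these cultures carries the R172H allele from knock-in C57BL/6 mice, descends from bone marrow mesenchymal stem cells by way of a tumour, and had no treatment. Tumour-derived cells were kept over agar in medium holding LIF (leukaemia inhibitory factor), a cytokine that acts through STAT3. The KO clones additionally carry the knockout, and each title names a clone without a number. The titles thus do not say whether the 2 KO libraries are different clones. The titles number the TL1 lines 1, 2 or 3, each number on 2 lines, which are called 1a and 1b, 2a and 2b, and 3a and 3b here. The labels give neither the line from which the KO clones were grown, nor the way the knockout was made, nor whether the libraries are separate cultures or animals. Knockout, clonal growth and line of origin therefore cannot be told apart here, and p-values reflect only how far these libraries scatter, part of which may be technical. The submitters describe the tumour-derived cells as having features of cancer stem cells.

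The protein p53 is a transcription factor that halts the cell cycle or starts cell death after DNA damage, through targets such as Cdkn1a and Bbc3, and that is itself held low by Mdm2 and Mdm4. The arginine that the allele replaces lies in the DNA-binding domain of mouse p53, and the R172H form folds wrongly, no longer binds its usual sites and builds up in tumours. Mesenchymal stem cells are the stromal progenitors of bone, cartilage and fat, and cells that lose p53 function can give rise to sarcomas. The codon that the allele alters is shown in its unaltered form, from transcript Trp53-201 of the GENCODE M21 annotation. It marks the site at which the allele differs from wild-type p53. The coding strand is given 5′ to 3′, with the codon of that arginine in capitals.
Trp53 codon: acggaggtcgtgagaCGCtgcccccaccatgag

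Library totals were 13321954 and 13580595 counts in the KO clones and 12540701 to 14574984 counts in the TL1 lines. The ribosomal RNA precursor Rn45s held 0.878% of all counts in KO clone 1 and 4.14% in KO clone 2, against 0.490% to 1.27% in the TL1 lines. Levels are given as CPM, a gene's counts relative to its library's size after TMM scaling. Across 13185 genes, log2 CPM of the KO clones correlated with each other at r = 0.963, and with single TL1 lines at r = 0.830 to 0.914. The TL1 lines correlated among themselves at r = 0.886 to 0.954 within a number and 0.823 to 0.911 between numbers. TL1 2b was the line most like each KO clone, at r = 0.909 for KO clone 1 and 0.914 for KO clone 2. Some TL1 lines stood apart for single programmes: TL1 2a was highest for 34 of 38 interferon genes and lowest for 28 of 30 sterol and fatty acid genes, and TL1 3a was highest for 18 of 28 skeletal muscle genes.

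Trp53 itself, at chr11:69580348-69591873 of GRCm38.p6, was counted at 80.8 CPM in KO clone 1 and 89.6 CPM in KO clone 2. In the TL1 lines it ranged from 126 to 302 CPM, with a median of 241 CPM. Both KO clones lay below all 6 TL1 lines. The log2 change was -1.45 (SE 0.37), which did not pass the test across all genes (adjusted p = 0.166, edgeR quasi-likelihood). DESeq2 gave -1.43 with an adjusted p of 0.00745, and the change was -1.80 (adjusted p = 0.0152, edgeR) against the TL1 lines of number 2 alone. The clones labelled as knockout thus had less Trp53 RNA than every TL1 line, and transcript was still counted in both. A count over the whole gene does not measure protein.

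None of the 19 tested p53 family members and regulators passed the edgeR test. Mdm2, the ligase that degrades p53 and is also its target, had 60.6 and 68.4 CPM in the KO clones, against 43.0 to 84.4 CPM (median 70.5) in the TL1 lines, with a log2 change of -0.08 (SE 0.27). Mdm4, the partner of Mdm2, had 14.7 and 13.9 CPM in the KO clones and 13.7 to 37.8 CPM (median 21.7) in the TL1 lines. Cdkn2a, whose ARF product restrains Mdm2, had 238 and 198 CPM in the KO clones, against 178 to 575 CPM (median 346) in the TL1 lines. All 3 genes overlapped between the groups. Trp63, a p53 homologue, stayed at or under 3.05 CPM in every library, and Trp73, the other homologue, had 1 count in the KO clones and 2 counts in the TL1 lines together.

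The p53 targets did not move one way. Of 39 tested targets none passed the edgeR test, 18 had positive changes, and the median log2 change was -0.12, near the median of -0.08 over all genes. Cdkn1a, the cell cycle inhibitor p21, had 156 and 134 CPM in the KO clones, against 41.9 to 312 CPM (median 137) in the TL1 lines (log2 change -0.11, SE 0.81). Its level in the TL1 lines spanned the KO values on both sides. Both KO clones lay above all TL1 lines for 5 targets and below all of them for 4, 12.8% and 10.3% of the list, against 8.21% and 10.1% of all tested genes. Plk2, a stress-induced kinase, had 334 and 334 CPM in the KO clones, against 61.5 to 256 CPM (median 143) in the TL1 lines. Bbc3, which encodes the death factor PUMA, had 4.33 and 3.74 CPM in the KO clones, against 4.97 to 15.7 CPM (median 8.12) in the TL1 lines. Perp, a desmosome gene, had no count in either KO clone, against 0.143 to 37.4 CPM in the TL1 lines, where TL1 2a and TL1 2b alone held more than 1 CPM. Genes reported elsewhere as raised by mutant p53 were mixed in sign: 11 of 22 had positive changes, with a median of 0.08. Of these 22 genes 1 (4.55%) was above all TL1 lines and 4 (18.2%) below. Abcb1a and Tert, given next, are among those below. In that list Abcb1a, a drug efflux pump, had no count in the KO clones and 1.15 to 7.05 CPM (median 3.23) in the TL1 lines, at least 31.7-fold lower in the KO clones by a bound of 3 counts over the group. Tert, the catalytic part of telomerase, had 0.787 and 0.239 CPM in the KO clones, against 2.60 to 12.4 CPM (median 6.24) in the TL1 lines. These list examples, like those named in other lists below unless called, were chosen after their values were seen.

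**Figure D1:**
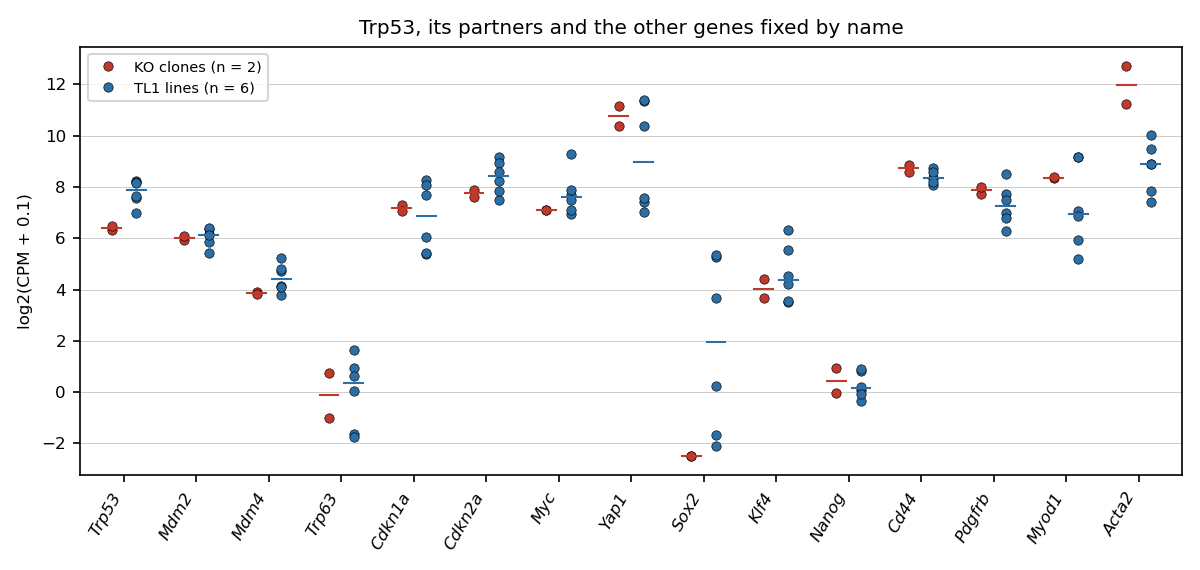
Levels per library, as log2(CPM + 0.1), of Trp53, its partners and other genes fixed by name. Red points are KO clones with their mean, blue points TL1 lines with their median. Both KO clones lie below all 6 TL1 lines for Trp53 (80.8 and 89.6 CPM against 126 to 302 CPM) and above all of them for Acta2, while Mdm2, Cdkn1a, Yap1 and Myod1 overlap.

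Over the genome, 13 of 13185 tested genes (0.0986%) rose in the KO clones and 5 (0.0379%) fell, at an adjusted p under 0.05 in edgeR. At an unadjusted p under 0.05 there were 1757 genes, and 44.1% of all tested genes had positive changes. DESeq2, with the same libraries, called 227 higher (1.62%) and 575 lower (4.10%), including all 18 genes called by edgeR. A simpler description is non-overlap: both KO clones were above all 6 TL1 lines for 1083 genes (8.21%) and below all 6 for 1326 genes (10.1%). All 18 called genes were of this kind. An exact permutation test of 2 against 6 libraries cannot go below p = 0.0714, so single genes were tested only in the fit across all genes. With the TL1 lines summed per number, 6 genes were called higher and 3 lower, and of the 18 genes only Srl and Arhgef17 were among them. The edgeR counts also depended on single libraries. Without KO clone 2 they were 0 higher and 0 lower, with 833 genes at an unadjusted p under 0.05, and without KO clone 1 they were 3 and 2. They were 1 and 1 without TL1 1a, 8 and 2 without TL1 1b, 6 and 5 without TL1 2a, 18 and 8 without TL1 2b, 47 and 17 without TL1 3a, and 6 and 2 without TL1 3b.

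Several of the 13 genes that rose are known from muscle. Ankrd2, a titin-binding stress sensor of muscle, had 12.8 and 29.6 CPM in the KO clones, against 0.0763 to 0.524 CPM (median 0.200) in the TL1 lines. Its log2 change was 6.49 (SE 0.65, adjusted p = 0.0214, edgeR). Apobec2, the muscle member of the cytidine deaminase family, had 8.66 and 11.6 CPM in the KO clones, against 0.196 to 0.573 CPM (median 0.399) in the TL1 lines, a log2 change of 4.68 (SE 0.50). Both genes were under 1 CPM in all 6 tumour lines. Srl, or sarcalumenin, binds calcium in the sarcoplasmic reticulum, and had 215 and 307 CPM in the KO clones, against 14.1 to 42.6 CPM (median 19.7) in the TL1 lines (log2 change 3.49, SE 0.39). Rrad, a Ras-like GTPase that inhibits calcium channels, had 112 and 117 CPM in the KO clones and 12.9 to 30.9 CPM (median 17.9) in the TL1 lines (log2 change 2.52, SE 0.32). Mbnl3, a muscleblind-like splicing regulator, had 89.9 and 247 CPM in the KO clones, against 15.8 to 34.5 CPM (median 21.7) in the TL1 lines (log2 change 2.91, SE 0.37). KO clone 2 had the higher level of the pair, and both lay above every TL1 line.

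The other called genes that rose have varied roles. Tln2, talin-2, links integrins to actin and had 236 and 270 CPM in the KO clones, against 19.3 to 49.9 CPM (median 26.8) in the TL1 lines, a log2 change of 3.08 (SE 0.31, adjusted p = 0.0214, edgeR). Ablim1, an actin-binding LIM protein, had 348 and 212 CPM in the KO clones, against 8.92 to 29.4 CPM (median 13.2) in the TL1 lines (log2 change 4.05, SE 0.48). Itsn1, intersectin, a scaffold of endocytosis, showed the smallest called change: 234 and 267 CPM in the KO clones, against 85.6 to 114 CPM (median 90.6) in the TL1 lines (log2 change 1.41, SE 0.18). Ip6k3, an inositol hexakisphosphate kinase, had 13.1 and 26.2 CPM in the KO clones and 0.688 to 2.08 CPM in the TL1 lines. Exoc3l had 41.1 and 45.1 CPM in the KO clones, against 2.78 to 9.53 CPM in the TL1 lines. R3hdml had 57.3 and 121 CPM in the KO clones and 0.0652 to 1.68 CPM in the TL1 lines. Their log2 changes were 3.86, 3.13 and 7.05. The other two that rose stayed under a mean of 10 CPM in the KO clones and are named beyond the rule for abundant genes. Sv2b, a synaptic vesicle protein, had 5.83 and 5.58 CPM in the KO clones, against at most 0.287 CPM in the TL1 lines. Tnmd, or tenomodulin, a tendon membrane protein, had 1.65 and 10.9 CPM in the KO clones. The TL1 lines held 2 counts of Tnmd in all, which gives a ratio of 262 (95% counting interval 71.2 to 2178.5).

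The 5 genes that fell included transcripts all but missing from the KO clones. Arhgef17, a guanine nucleotide exchange factor, had 0.394 and 1.12 CPM in the KO clones, against 67.1 to 126 CPM (median 108) in the TL1 lines. It fell by 7.04 on the log2 scale (SE 0.55), with the smallest adjusted p of the comparison (0.00703, edgeR), and is 1 of 29 tested YAP and TEAD genes. Fah, the enzyme of the last step of tyrosine breakdown, had 0.236 and 0.0797 CPM in the KO clones, against 9.77 to 24.7 CPM (median 13.8) in the TL1 lines (log2 change -6.54, SE 0.77). Bhlhb9 had 2 counts in the KO clones together, against 9.09 to 59.8 CPM (median 52.9) in the TL1 lines. That is a ratio of 573 in favour of TL1 (95% counting interval 159 to 4733). Fam132a, which encodes the secreted factor adipolin, had 1.18 and 1.04 CPM in the KO clones, against 9.56 to 36.4 CPM (median 19.04) in the TL1 lines (log2 change -4.22, SE 0.59). Mpv17, of the inner mitochondrial membrane, had 9.29 and 7.81 CPM in the KO clones, against 36.4 to 74.2 CPM (median 52.95) in the TL1 lines (log2 change -2.69, SE 0.35).

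**Figure D2:**
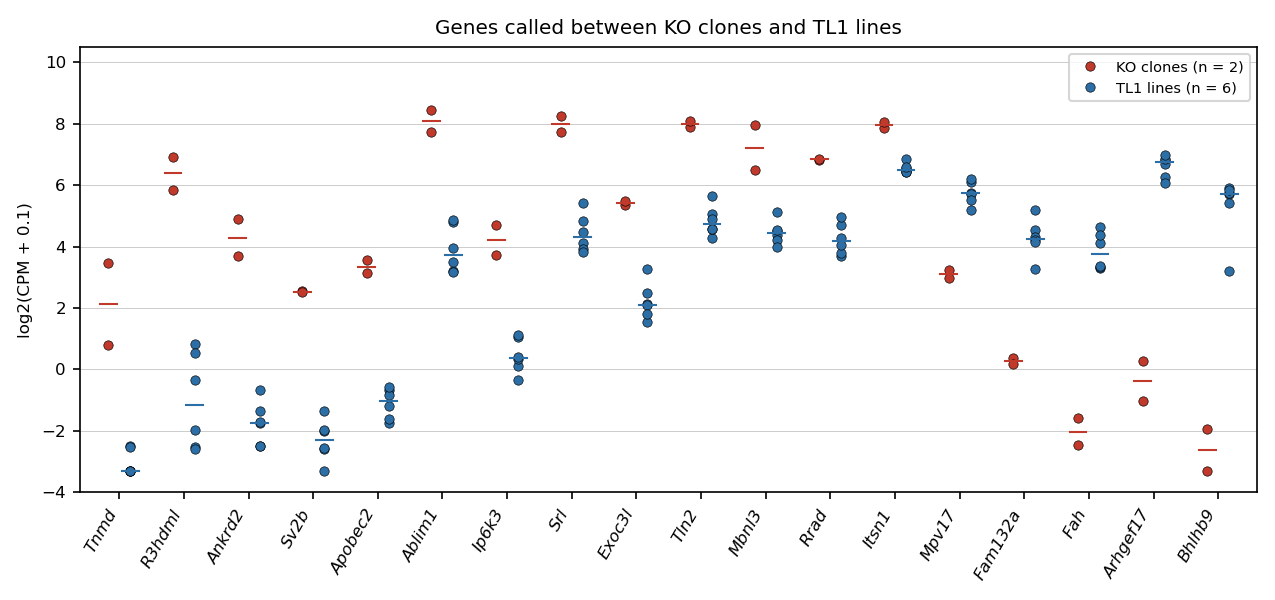
Levels per library, as log2(CPM + 0.1), of the 18 called genes, ordered by log2 change. Red points are KO clones with their mean, blue points TL1 lines with their median. The groups overlap for none of the 18, of which Itsn1 has the smallest log2 change (1.41) and Arhgef17 the lowest adjusted p.

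Some genes were near silent in one group alone. By a rule set after the values were seen, 8 genes were under 1 CPM in both KO clones and at 5 CPM or more in all TL1 lines, and 4 showed the reverse. The first set holds Bhlhb9 and Fah together with Cebpa, Fam132b, Igfbp4, Itgb7, Pla2g4a and Pla2g7, which did not pass the edgeR test. Igfbp4, a secreted binder of insulin-like growth factors, had 0.630 and 0.956 CPM in the KO clones, against 20.1 to 624 CPM (median 102) in the TL1 lines. Cebpa, a transcription factor of fat and myeloid cells, had 0.630 and 0.717 CPM in the KO clones, against 6.92 to 82.5 CPM (median 15.7) in the TL1 lines. Pla2g4a, the phospholipase that frees arachidonic acid, had 0.394 and 0.239 CPM in the KO clones, against 7.88 to 54.5 CPM (median 25.8) in the TL1 lines. The spread among TL1 lines was wide for all 3 of these genes, while the KO clones were uniformly low. The reverse set holds Ankrd2, Apobec2, Sv2b and Filip1, a filamin-binding protein, which had 11.5 and 12.4 CPM in the KO clones and at most 0.748 CPM in the TL1 lines.

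Skeletal muscle genes were high in the KO clones as a list. Of 28 tested members 25 had positive changes, with a median log2 change of 2.56, and 16 (57.1%) were above all 6 TL1 lines, against 8.21% of all tested genes; none was below. No member passed the edgeR test, while DESeq2 called 5 higher and 1 lower among the 14 members with an adjusted p. Over all genes DESeq2 called 1.62% higher and 4.10% lower. The list was fixed with earlier results of these data known. Among the sarcomere genes, Tnnc1, the slow and cardiac troponin C, had 418 and 431 CPM in the KO clones, against 1.70 to 60.0 CPM (median 12.7) in the TL1 lines (log2 change 4.55, SE 0.95, adjusted p = 0.114). Acta1, skeletal actin, had 1110 and 1533 CPM in the KO clones, against 1.63 to 503 CPM (median 51.1) in the TL1 lines (log2 change 3.31, SE 1.30). Myh3, the embryonic myosin heavy chain, had 225 and 290 CPM in the KO clones, against 0.130 to 81.0 CPM (median 6.38) in the TL1 lines. TL1 3a was the highest tumour line for these 3 genes. Myh1, an adult fast myosin heavy chain, had 482 and 309 CPM in the KO clones, against 0.326 to 58.4 CPM (median 12.1) in the TL1 lines, with TL1 2b highest.

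Other members of the list have roles outside the sarcomere. Chrna1, the acetylcholine receptor subunit of the neuromuscular junction, had 1314 and 873 CPM in the KO clones, against 82.4 to 468 CPM (median 155) in the TL1 lines (log2 change 2.45, SE 0.59, adjusted p = 0.155). Cdh15, the M-cadherin of myoblasts, had 1161 and 1127 CPM in the KO clones, against 46.5 to 393 CPM (median 159) in the TL1 lines (log2 change 2.66, SE 0.72). Of the factors that set muscle identity, Myod1, Myog, Myf5 and Pax3 overlapped between the groups. Myod1 had 327 and 332 CPM in the KO clones, against 36.7 to 571 CPM (median 125) in the TL1 lines (log2 change 0.41, SE 0.97), with TL1 1a and TL1 3a above both clones. Myog, the factor of terminal differentiation, leaned the way of the sarcomere genes. It had 179 and 238 CPM in the KO clones, against 1.11 to 274 CPM (median 10.4) in the TL1 lines. Myf5 had 89.3 and 61.0 CPM in the KO clones, against 13.4 to 124 CPM (median 72.3) in the TL1 lines. Pax3, a factor of muscle precursors, went the other way, with 0.394 and 0.000 CPM in the KO clones, against 0.000 to 17.4 CPM (median 8.90) in the TL1 lines. Without TL1 3a, the line with the most muscle RNA, the KO clones were above the rest for 22 members in place of 16. Against the 2 lines of number 1, 2 or 3 alone the median log2 change was 3.77, 3.64 and 1.89.

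The genes of contraction that smooth muscle and stromal cells share leaned the same way with smaller changes. Of 24 tested members 22 had positive changes, and the median was 0.71. In this list 7 (29.2%) were above all TL1 lines, against 8.21% of all tested genes. DESeq2 called 3 of 23 members higher, against 1.62% of all genes, and edgeR none. Acta2, smooth muscle actin, had 2437 and 6660 CPM in the KO clones, against 173 to 1039 CPM (median 477) in the TL1 lines (log2 change 3.13, SE 0.61, adjusted p = 0.0956). Synpo2, an actin-binding protein of Z-discs, had 90.4 and 104 CPM in the KO clones, against 10.2 to 37.5 CPM (median 24.3) in the TL1 lines (log2 change 1.98, SE 0.41). Tagln, an actin binder of smooth muscle, had 222 and 1420 CPM in the KO clones and 16.7 to 231 CPM (median 86.5) in the TL1 lines. KO clone 2, the clone with more Rn45s, was the higher for Acta2 and Tagln, and KO clone 1 overlapped the TL1 lines for Tagln.

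Interferon-stimulated genes, an antiviral programme, were low in the KO clones. All 38 tested members had negative changes, with a median log2 change of -3.98, and 26 (68.4%) lay below all 6 TL1 lines, against 10.1% of all tested genes. The size of the gap differed by line. Relative to each gene's median library, the list median of log2 CPM was -1.98 and -1.89 in the KO clones. It was -0.72 in TL1 1a, -0.57 in TL1 2b, 3.14 in TL1 2a and 0.45 to 1.06 in the other lines. With TL1 2a left out, 26 members were below the remaining lines. No member passed the edgeR test, while DESeq2 called 22 of 33 members with an adjusted p lower, against 4.10% of all genes. Ifitm3, a membrane protein that blocks virus entry, had 62.8 and 59.2 CPM in the KO clones, against 121 to 619 CPM (median 366) in the TL1 lines (log2 change -2.68, SE 0.59, adjusted p = 0.133). Ifit1, which binds viral RNA, had 1.18 and 2.87 CPM in the KO clones, against 10.01 to 171 CPM (median 46.7) in the TL1 lines (log2 change -4.90, SE 1.36). Isg15, a ubiquitin-like modifier, had 2.52 and 2.95 CPM in the KO clones, against 6.88 to 264 CPM (median 29.4) in the TL1 lines. Irf7, the factor that amplifies interferon production, had 0.551 and 0.319 CPM in the KO clones, against 0.973 to 125 CPM (median 11.9) in the TL1 lines. TL1 2a was the highest line for each of these 4 genes, and TL1 1a or TL1 2b the lowest.

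Against the TL1 lines of number 1, 2 or 3 alone the median log2 change was -2.59, -4.52 and -3.10. Among the factors of the programme, Stat2 overlapped between the groups and Irf9 did not. Stat2 had 17.8 and 19.9 CPM in the KO clones, against 15.7 to 93.8 CPM (median 30.8) in the TL1 lines. Irf9 had 9.997 and 7.01 CPM in the KO clones, against 11.3 to 94.9 CPM (median 32.8) in the TL1 lines. Genes that load peptides on MHC class I, many of them interferon-inducible, were also low: 16 of 18 had negative changes, with a median of -1.04, and 4 (22.2%) were below and 1 (5.56%) above all TL1 lines, against 10.1% and 8.21% of all tested genes. DESeq2 called 4 of the 18 lower and 1 higher, against 4.10% and 1.62% of all genes, and edgeR none. Psmb8, an immunoproteasome subunit, had no count in the KO clones and 0.688 to 22.5 CPM (median 3.67) in the TL1 lines, at least 70.1-fold lower by a bound of 3 counts over the group. H2-T23, a non-classical class I gene, had 2.13 and 1.91 CPM in the KO clones, against 7.11 to 32.4 CPM (median 16.99) in the TL1 lines. Macrophages and other blood cells also carry interferon genes, and their summed markers were 8.37 to 8.82 CPM in the KO clones, against 16.3 to 50.3 CPM in the TL1 lines over 21 markers, 4 of them at 0 throughout. Ptprc, the defining marker of blood cells, had no count in either KO clone and at most 4 counts in a TL1 line. Csf1r, a receptor of macrophages, was detected throughout, with 23 and 25 counts in the KO clones and 25 to 58 counts in the TL1 lines.

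**Figure D3:**
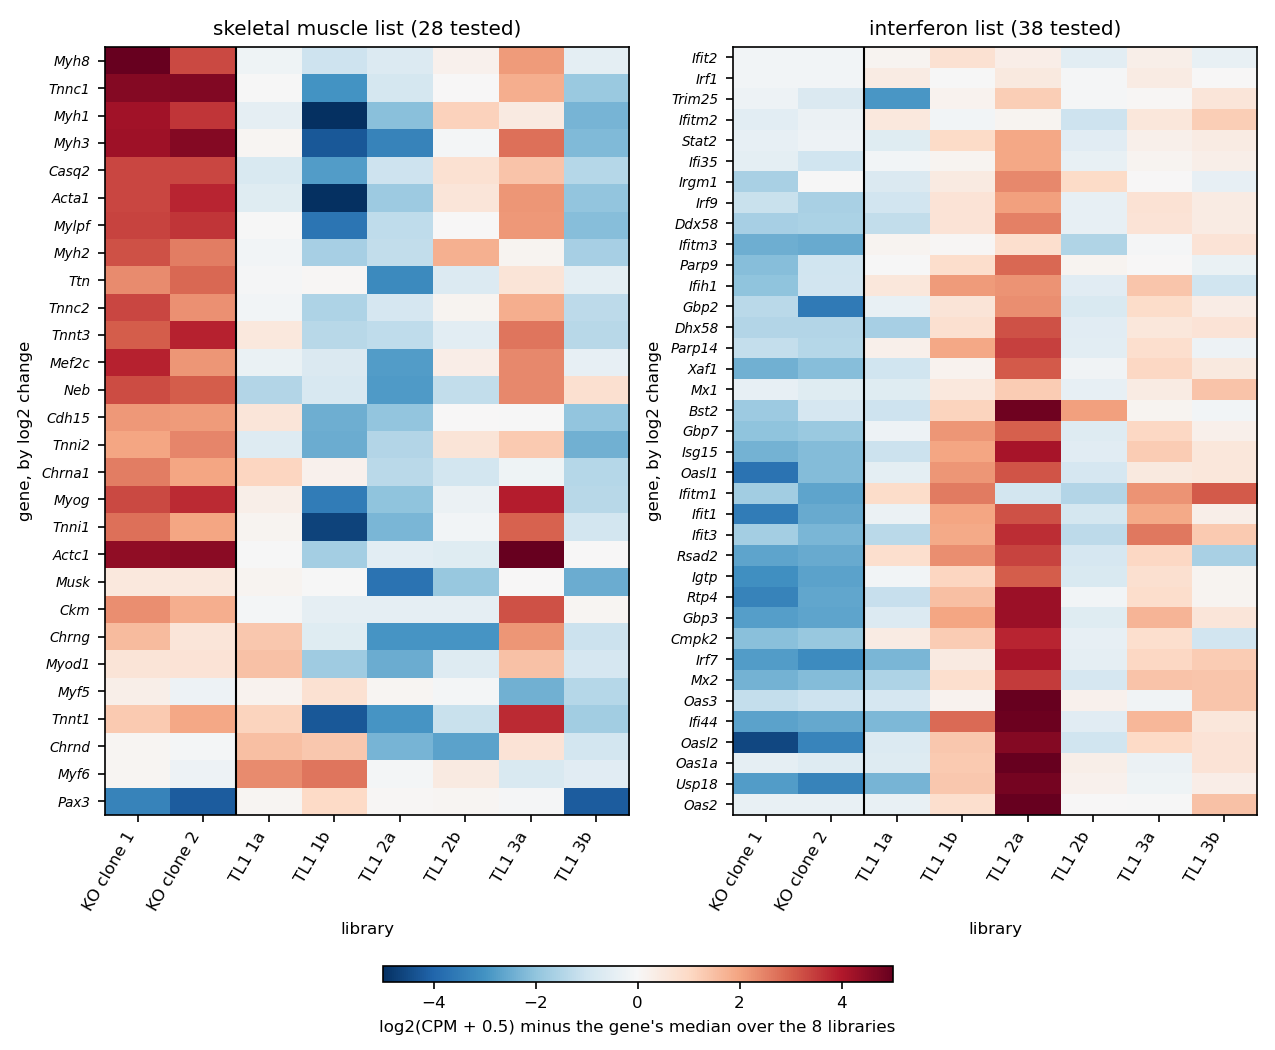
Levels of skeletal muscle genes (left) and interferon genes (right, 1 of the 38 not drawn) in each library, as log2(CPM + 0.5) minus the gene's median over the 8 libraries, with genes ordered by log2 change. Columns left of the line are the KO clones. Most muscle genes are red in both clones and many in TL1 3a, while most interferon genes are blue in both clones and red in TL1 2a, the highest line for 34 of 38.

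The promoters of both groups were read in RefSeq windows of GRCm38.p6, from 250 bases before to 50 bases after each gene start. Windows are shown only for genes with a match to letters known from these programmes. The core of the interferon-stimulated response element, searched as GAAANNGAA on both strands with overlapping matches allowed, was found in 19 of 29 interferon genes with a window (65.5%). Of all tested genes with a window, 8.43% held it. Of the 21 members below every TL1 line that had a window, 12 held the core. It was thus no more common among them than over the whole list. A match is a description of the letters, not evidence of a factor bound there. Of these promoters, 5 follow on the gene's own strand, with 1 match in capitals; further matches stand in lower case in some windows, and a match that starts with TTC is the core on the other strand.
Isg15, chr4:156200863-156200921, minus strand: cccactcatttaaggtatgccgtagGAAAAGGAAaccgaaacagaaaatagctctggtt
Ifit1, chr19:34640755-34640813, plus strand: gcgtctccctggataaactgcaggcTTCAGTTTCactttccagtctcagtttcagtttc
Ifit3, chr19:34583349-34583407, plus strand: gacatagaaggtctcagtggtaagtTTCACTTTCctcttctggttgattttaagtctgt
Gbp3, chr3:142559975-142560033, plus strand: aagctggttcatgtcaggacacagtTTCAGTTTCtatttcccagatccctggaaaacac
Oas3, chr5:120777701-120777759, minus strand: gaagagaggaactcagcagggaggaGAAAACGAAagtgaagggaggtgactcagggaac

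The matches begin 44 to 155 bases before the start of these 5 genes. For muscle genes, the E-box CAGCTG, the letters that MyoD and myogenin bind, was searched as a palindrome. It was found in 7 of 21 skeletal muscle genes with a window (33.3%), against 18.2% of all tested genes with one. Of the 13 members above every TL1 line that had a window, 4 held it, and these are shown with the E-box in capitals. The E-box was thus no more common among those 13 than over the whole list. No match says only that these letters are not in the window.
Acta1, chr8:123894966-123895021, minus strand: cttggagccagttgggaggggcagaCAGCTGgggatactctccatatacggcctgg
Mylpf, chr7:127211532-127211587, plus strand: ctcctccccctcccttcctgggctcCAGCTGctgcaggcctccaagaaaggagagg
Chrna1, chr2:73580400-73580455, minus strand: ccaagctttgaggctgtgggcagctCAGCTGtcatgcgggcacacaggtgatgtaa
Musk, chr4:58285869-58285924, plus strand: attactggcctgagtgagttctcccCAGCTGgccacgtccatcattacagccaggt

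Mylpf, a fast myosin light chain, had 264 and 310 CPM in the KO clones, against 1.57 to 114 CPM (median 17.6) in the TL1 lines. Musk, the receptor kinase that clusters acetylcholine receptors, had 42.0 and 42.5 CPM in the KO clones, against 1.76 to 31.8 CPM (median 18.2) in the TL1 lines. The groups did not overlap for either gene.

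Genes of sterol and fatty acid synthesis, which SREBP factors switch on when sterols run low, were mostly higher in the KO clones. Of 30 tested members 26 had positive changes, with a median of 0.65. In this list 13 (43.3%) were above all TL1 lines, against 8.21% of all tested genes. Here edgeR called none and DESeq2 1 of 30 higher, against 1.62% of all genes. Mvd, which makes isopentenyl pyrophosphate, had 104 and 139 CPM in the KO clones, against 18.3 to 52.7 CPM (median 30.1) in the TL1 lines (log2 change 1.80, SE 0.37, adjusted p = 0.108). Hmgcs1, the first committed enzyme of the mevalonate pathway, had 296 and 274 CPM in the KO clones, against 41.8 to 212 CPM (median 119) in the TL1 lines. TL1 2a had the lowest level of both. Of 28 tested unfolded protein and ATF4 genes, 17 had positive and 11 negative changes, with a median of 0.26. In that list 8 (28.6%) were above all TL1 lines, against 8.21% of all tested genes. There edgeR called none and DESeq2 called 4 of 27 higher, against 1.62% of all genes. Hspa5, the chaperone BiP, had 2193 and 1370 CPM in the KO clones, against 720 to 1011 CPM (median 902) in the TL1 lines (log2 change 1.02, SE 0.24, adjusted p = 0.148). Manf, a secreted stress factor of that compartment, had 372 and 290 CPM in the KO clones, against 96.9 to 167 CPM (median 137) in the TL1 lines (log2 change 1.35, SE 0.25, adjusted p = 0.0951).

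Mitosis and S phase genes leaned higher in the KO clones, without a call. For mitosis genes 24 of 25 had positive changes, with a median of 0.54. Of these genes 5 (20.0%) were above all TL1 lines, against 8.21% of all tested genes. Neither edgeR nor DESeq2 called any, and 1 had an unadjusted p under 0.05 in edgeR. Against the TL1 lines of number 1, 2 or 3 alone the median was 0.80, 0.01 and 0.92, and TL1 3a was the lowest line for the list. S phase genes had a median of 0.34, with none of 24 outside the range of the TL1 lines. Relative to each gene's median library, the median of the S phase list was 0.272 and 0.119 in the KO clones. It was higher in TL1 2a (0.536) and TL1 2b (0.59), and -0.456 to -0.235 in TL1 1a, TL1 1b and TL1 3b. TL1 3a was at -1.42 and was the lowest line for 23 of the 24 genes.

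Most immediate early and LIF pathway genes had negative changes, without passing the edgeR test. Of 22 immediate early genes and their feedback phosphatases, 19 had negative changes, with a median of -0.69 and 5 (22.7%) below all TL1 lines. DESeq2 called 4 of these 22 lower, against 4.10% of all genes, and edgeR none. Dusp6, the phosphatase that turns off ERK, had 6.85 and 8.13 CPM in the KO clones, against 23.9 to 102 CPM (median 57.6) in the TL1 lines (log2 change -2.94, SE 0.67, adjusted p = 0.143). Ier3, an early response gene, had 49.1 and 60.4 CPM in the KO clones, against 87.5 to 194 CPM (median 154) in the TL1 lines (log2 change -1.49, SE 0.32). Among 20 LIF and STAT3 genes 16 had negative changes, with a median of -0.67, and 5 (25%) were below all TL1 lines. DESeq2 called 1 of these 20 lower, near the 4.10% of all genes, and edgeR none. Socs3, the feedback inhibitor of that pathway, had 21.4 and 21.8 CPM in the KO clones, against 35.5 to 272 CPM (median 58.7) in the TL1 lines. The retinoic acid list had negative changes in all 13 tested members (median -1.50), and 3 (23.1%) were below all TL1 lines. Of all tested genes 10.1% were below all TL1 lines. Rarg, a receptor of retinoic acid, had 88.9 and 94.7 CPM in the KO clones, against 149 to 281 CPM (median 209) in the TL1 lines (log2 change -1.15, SE 0.29).

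Genes of the epithelial-mesenchymal transition and cadherins mostly had negative changes, with some going the other way. Of 18 tested genes of that transition and cadherins, 5 had positive changes (median -1.14). In this list 2 (11.1%) were above and 5 (27.8%) below all TL1 lines, against 8.21% and 10.1% of all tested genes. Twist1 and Twist2, regulators of mesenchyme and of the epithelial-mesenchymal transition, were both below all TL1 lines. Twist1 had 25.3 and 29.1 CPM in the KO clones, against 56.7 to 100 CPM (median 87.7) in the TL1 lines (log2 change -1.60, SE 0.27, adjusted p = 0.0799). Twist2 had 2 counts in the KO clones together, against 2.02 to 54.9 CPM (median 8.19) in the TL1 lines, a ratio of 206 in favour of TL1 (95% counting interval 56.9 to 1703). Snai2, another factor of that transition, was above them, with 119 and 103 CPM in the KO clones and 30.8 to 102 CPM (median 45.5) in the TL1 lines. Cdh2, N-cadherin, had 435 and 442 CPM in the KO clones, against 11.3 to 157 CPM (median 111) in the TL1 lines (log2 change 2.21, SE 0.66). Hox and limb homeobox genes had negative changes in 26 of 34 members (median -0.83). Of these 34 genes 1 (2.94%) was above and 7 (20.6%) below all TL1 lines, against 8.21% and 10.1% of all tested genes. Tbx3, a limb and heart factor, had 6.53 and 3.74 CPM in the KO clones and 17.8 to 127 CPM (median 38.8) in the TL1 lines. Among matrix genes, Dcn, the proteoglycan decorin, had 0.708 and 0.000 CPM in the KO clones, against 0.764 to 193 CPM (median 63.7) in the TL1 lines. Spp1, osteopontin, had 728 and 703 CPM in the KO clones and 855 to 11150 CPM (median 4411) in the TL1 lines. Sparc, a collagen-binding glycoprotein, had 3969 and 3421 CPM in the KO clones, against 1032 to 3130 CPM (median 1335) in the TL1 lines. Of 32 matricellular and proteoglycan genes, 6 (18.8%) were above and 3 (9.38%) below all TL1 lines, against 8.21% and 10.1% of all tested genes. Of 25 collagens, 4 (16%) were above and 2 (8%) below, and edgeR called none of either list.

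Stem cell genes did not share 1 pattern. Sox2, a factor of pluripotent and neural stem cells, had 2 counts in the KO clones together. The TL1 lines fell apart, with 39.0, 41.2 and 12.8 CPM in TL1 1a, TL1 3b and TL1 2b and at most 1.09 CPM in the other lines. Both KO clones lay below all of them, at 0.0787 and 0.0797 CPM. The gap to TL1 1b (0.130 CPM) and TL1 3a (0.215 CPM) rests on very few counts. Nanog stayed at or under 1.83 CPM throughout. Klf4 had 20.9 and 12.7 CPM in the KO clones, against 11.4 to 80.2 CPM (median 20.7) in the TL1 lines, and Myc had 137 and 136 CPM in the KO clones, against 122 to 633 CPM (median 194) in the TL1 lines. Cd44, a hyaluronan receptor often used to mark cancer stem cells, had 467 and 387 CPM in the KO clones, against 273 to 432 CPM (median 327) in the TL1 lines. Pdgfrb, a receptor of stromal cells, had 214 and 255 CPM in the KO clones and 77.4 to 362 CPM (median 155) in the TL1 lines. Of 8 tested pluripotency genes, 3 had positive changes (median -1.13) and 2 were below all TL1 lines, against 10.1% of all tested genes. With so short a list, that difference was not tested. None of these genes passed the edgeR test, while DESeq2 called Sox2 lower (adjusted p = 0.0101).

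Of 29 tested YAP and TEAD genes, 18 had positive changes (median 0.07), and Arhgef17 alone was called. In this list 3 (10.3%) were above and 3 (10.3%) below all TL1 lines, near the 8.21% and 10.1% of all tested genes. Yap1, the effector of the Hippo pathway, split the tumour lines. It had 2261 and 1335 CPM in the KO clones. Among TL1 lines it had 1324, 2588 and 2694 CPM in TL1 1a, TL1 2a and TL1 2b, and 172.5, 191 and 131 CPM in TL1 1b, TL1 3a and TL1 3b. The KO clones thus sat with 3 of the 6 TL1 lines, and the log2 change against all 6 was 0.60 (SE 1.14). The expressed genes just before Yap1 on chromosome 9 showed the same split. Birc2, an inhibitor of apoptosis at chr9:7818226-7837131, had 187 and 80.2 CPM in the KO clones, against 167, 246 and 218 CPM in TL1 1a, TL1 2a and TL1 2b and 15.3 to 34.5 CPM in the other lines. Dcun1d5, a cullin neddylation factor at chr9:7176590-7220880, had 999 and 600 CPM in the KO clones, against 698, 1550 and 1594 CPM in TL1 1a, TL1 2a and TL1 2b and 63.0 to 76.4 CPM in the other lines. Tmem123 and Birc3, on the same stretch, divided the libraries alike. So did 9230110C19Rik, just past Yap1 at chr9:8021672-8042875, with 120 and 76.7 CPM in the KO clones, against 49.0, 87.4 and 221 CPM in TL1 1a, TL1 2a and TL1 2b and 11.5 to 16.2 CPM in the other lines. Arhgap42, further on at chr9:8992507-9239027, did not: it had 39.7 and 56.9 CPM in the KO clones, and TL1 2a and TL1 2b were its lowest lines, at 4.62 and 3.44 CPM. The neighbours were looked up after the Yap1 values were seen.

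Whole chromosomes differed in level between the groups. Over 9393 genes that averaged 10 CPM or more, each library's log2 level relative to the gene's median library was taken, and its median per chromosome was compared. For chromosome 16, the KO clones had medians of 0.18 and 0.52, against -0.46 to 0.07 in the TL1 lines. Of its 310 genes 34.5% were above all TL1 lines and 2.58% below, against 8.86% and 9.19% over all chromosomes, and the median log2 change was 0.50. Itsn1 and Srl, both called higher, lie on chromosome 16. For chromosome 3 the KO clones had medians of -0.38 and -0.26, against -0.03 to 0.25 in the TL1 lines. Of its 486 genes 35.0% were below all TL1 lines and 2.06% above, with a median log2 change of -0.51, and Sox2 lies there. Chromosomes 15 and 17 also had both KO clones below all TL1 lines, with median log2 changes of -0.33 and -0.32. For chromosome 19 the KO clones had medians of 0.11 and 0.12, against at most 0.09 in the TL1 lines. The remaining 15 chromosomes overlapped, chromosome 11 with Trp53 among them (median log2 change 0.01).

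The shift ran along the whole of chromosomes 3 and 16. With the genes of a chromosome split by position into 3 equal parts, the median log2 change of chromosome 3 was -0.49, -0.55 and -0.48, and that of chromosome 16 was 0.46, 0.55 and 0.51. Chromosome 12, whose median was -0.35, was uneven: its parts were at -0.825, -0.168 and 0.004. A median of 0.50 on the log2 scale is 1.41-fold and one of -0.51 is 0.702-fold. The part of these shifts in the changes of single genes was not tested.

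**Figure D4:**
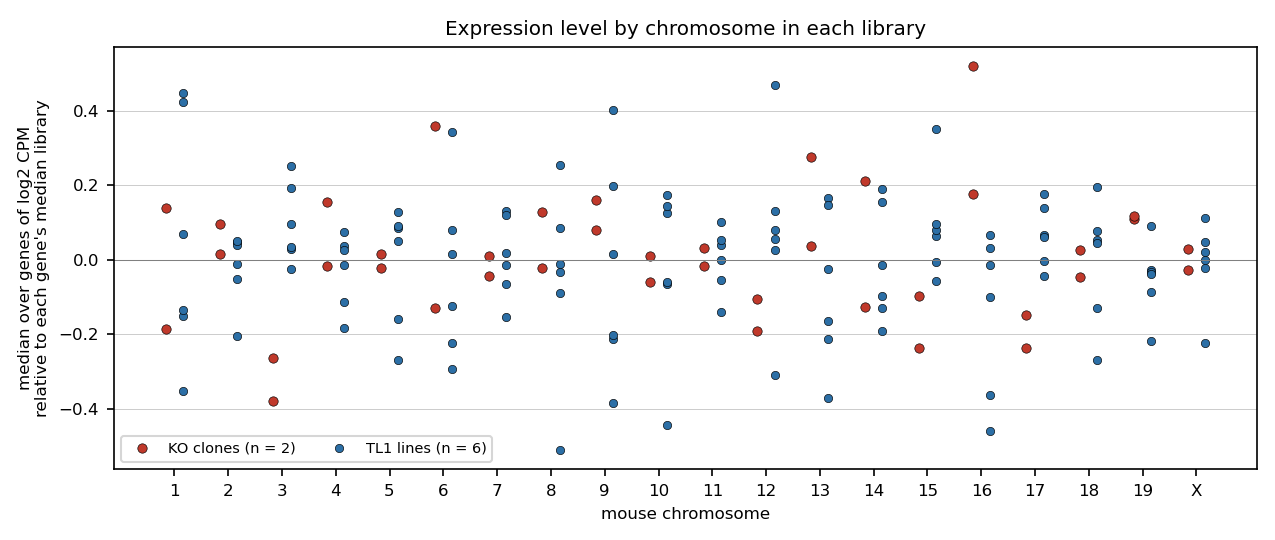
Median expression of the genes of each mouse chromosome in each library, as log2 CPM relative to each gene's median library. Red points are the 2 KO clones, blue points the 6 TL1 lines. Both clones sit above all TL1 lines on chromosome 16 (0.18 and 0.52 against at most 0.07) and below all of them on chromosomes 3, 15 and 17.

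The labelled cell type was checked against its markers. Stromal markers summed to 3105 and 3068 CPM in the KO clones, against 1485 to 6900 CPM in the TL1 lines, so the clones lay within the range of the tumour lines. Endothelial markers summed to 3.78 and 8.21 CPM in the KO clones and 5.09 to 34.2 CPM in the TL1 lines, and epithelial markers to 89.2 and 183 CPM in the KO clones and 45.9 to 567 CPM in the TL1 lines. The defining markers Epcam, of epithelium, and Cdh5, of endothelium, had at most 5 and 6 counts in any library, and Sox10, of Schwann cells, had none. Neural and Schwann markers summed to 599.6 and 519 CPM in the KO clones, against 134 to 413 CPM in the TL1 lines. Of 10 tested, 3 (30.0%) were above all TL1 lines, against 8.21% of all tested genes. Most of the neural sum in the KO clones was Ncam1, an adhesion molecule that myoblasts also carry, with 394 and 431 CPM in the KO clones, against 49.3 to 286 CPM (median 121) in the TL1 lines. Of the tested markers, 9 of 22 stromal, 3 of 12 epithelial, 0 of 6 macrophage and blood, 0 of 5 endothelial and 5 of 10 neural ones had positive changes, and edgeR called none. The part of any admixed cell type in these levels was not tested. In RNA of whole cultures, fewer cells of a type and less RNA per cell cannot be told apart.

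The other 19 of the 44 lists held no called gene, and their medians ran from -1.31 for imprinted growth genes to 0.31 for proteasome subunits. Their share above all TL1 lines was at most 15.8% (Notch) and below at most 20.0% (apoptosis and BCL2 family).

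**Figure D5:**
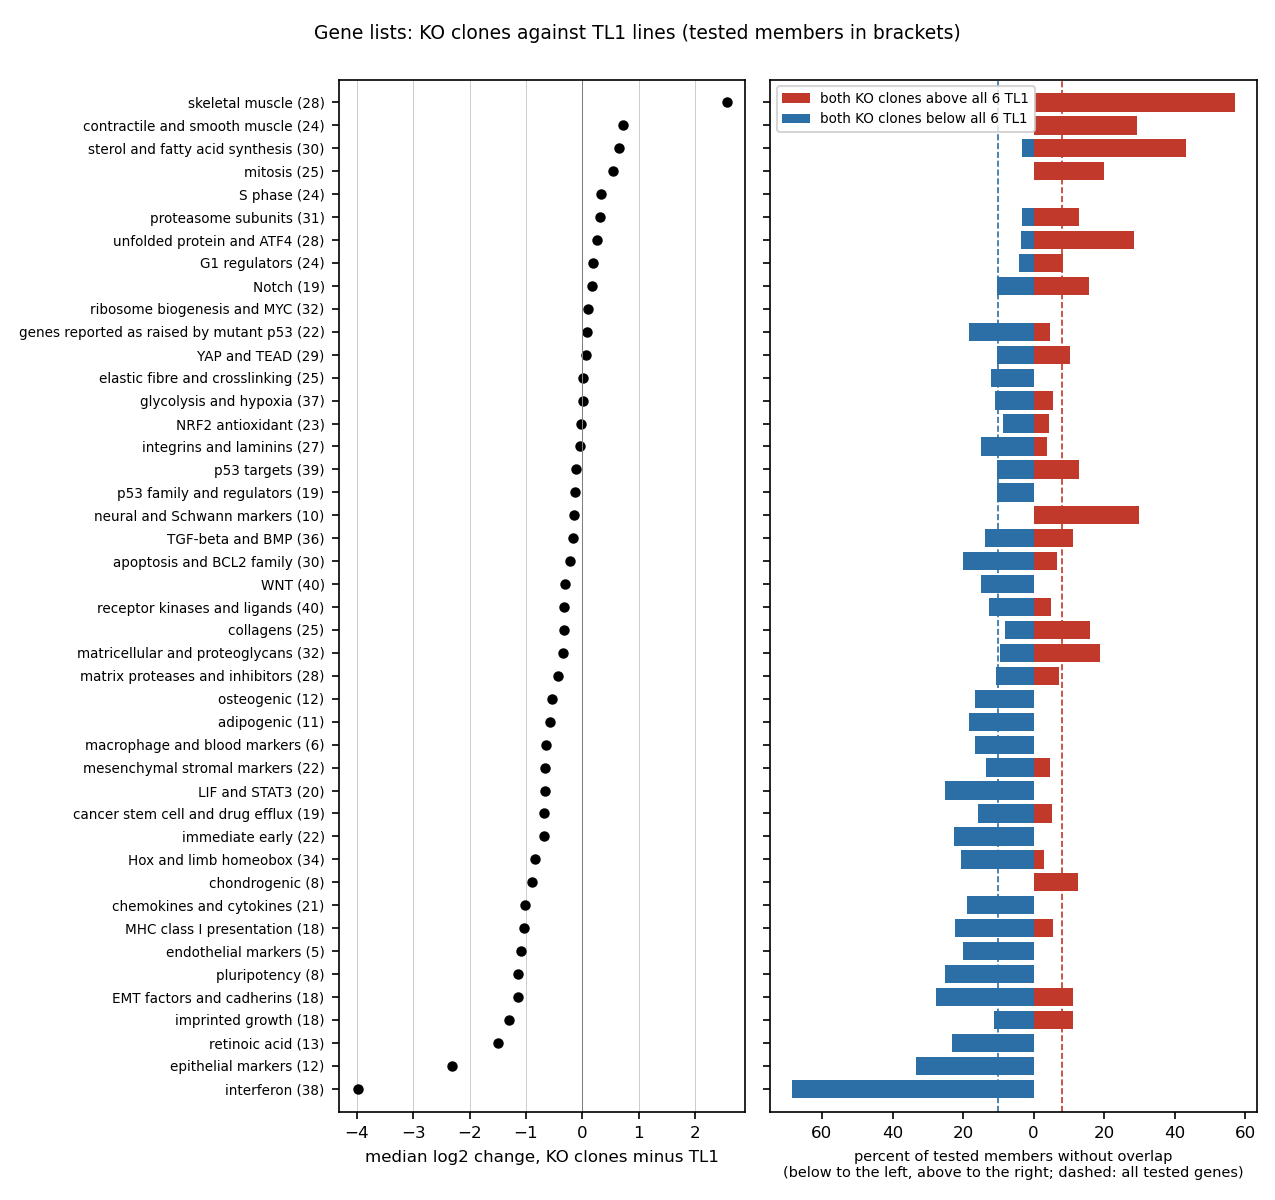
Median log2 change of each gene list (left) and percent of its tested members for which both KO clones were above (red, to the right) or below (blue, to the left) all 6 TL1 lines. Dashed lines are the shares over all tested genes, 8.21% above and 10.1% below. The skeletal muscle list reaches 57.1% above and the interferon list 68.4% below.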

How the data were processed

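Single-end RNA sequencing of 8 libraries was used. Cutadapt, HTSeq 0.6.1p1, TopHat2 2.0.10, DESeq2 1.6.3 and build mm10 are named per the submitters' processing notes. For annotation and strand, nothing is stated in the labels, so antisense and overlapping genes cannot be told apart. The deposited table holds whole-number counts for 23420 gene symbols, not normalized, and 4 of its columns match no sample and were not used.

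Counts were filtered with filterByExpr, scaled by TMM and tested with edgeR 4.0.16 (robust quasi-likelihood fit, R 4.3.3), KO clones minus TL1, in 1 comparison. Benjamini-Hochberg adjustment ran over 13185 genes, and genes under 0.05 are called. Alternatives were DESeq2 1.42.0, limma-voom (limma 3.58.1), other scalings, no filter, other sets of TL1 lines and leaving out each library. No libraries of a group agreed within sampling noise. Correlations and chromosome medians used log2 CPM with a prior count of 2. Counting intervals (exact, 95%) and bounds of 3 counts over a group cover counting error only. Positions and promoters are from RefSeq GRCm38.p6, where 13137 tested symbols matched, 851 through a synonym.

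Named genes were Trp53, 15 fixed genes, up to 4 called members of each of 44 lists, and per direction the 12 largest changes among non-overlapping called genes whose higher group averaged 10 CPM or more. Others are said to be outside this rule. The members and lists were chosen with earlier results of these data known. Some results are not reported here.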

Additional observations from a re-analysis of the deposited data

Results flagged for a closer look

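Among 44 items checked over the 6 TL1 lines, 2 had a line set apart by Dixon's criterion, where chance alone sets apart about 1 in 20. For Bhlhb9, TL1 2a was low at 9.09 CPM, with a gap of 0.819 of the range of the TL1 lines on the log2 scale. For the median of the sterol and fatty acid genes, TL1 2a was again low, at -1.36 on the log2 scale against -0.10 to 0.23 in the other lines, with a gap of 0.793 of the range.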

How the results depend on the processing

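No paired analysis was possible because the KO clones carry no number that a TL1 line shares. The counts of called genes, 13 higher and 5 lower, moved with most settings. They were 8 and 5 without scaling, 227 and 575 with DESeq2, 74 and 10 with limma-voom, 58 and 51 with the other libraries except the Mut clones in the fit, and 6 and 3 with TL1 lines summed per number. Against number 1, 2 or 3 alone they were 37 and 54, 261 and 108, and 0 and 0 (3107 at an unadjusted p under 0.05); with number 1, 2 or 3 left out they were 3 and 1, 24 and 40, and 23 and 15. Leaving out each library gave 0 to 47 higher and 0 to 17 lower. Of the 18 called genes, 18 were also called by DESeq2, 15 by limma-voom, 12 without scaling and 2 with summed lines. None of the 18 changed sign in the 23 alternatives, and each kept its call in 8 (Tnmd) to 21 (Arhgef17) of them. The median of all genes was -0.201 without scaling, against -0.08.

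Trp53 passed the threshold with DESeq2 (-1.43) and against number 2 alone (-1.80), and ranged from -1.58 to -1.36 when each library was left out. DESeq2 also called Sox2 (adjusted p = 0.0101) and Acta2; edgeR called Acta2 when the other libraries except the Mut clones were in the fit. Sign changes were seen for uncalled fixed genes only, and the cause was not tested. Against number 3 alone Mdm2 was at 0.196, Pdgfrb at -0.013 and Myod1 at -0.059. Against number 2 alone Cdkn1a was at 1.78 (adjusted p = 0.0181, edgeR), Cdkn2a at 0.103 and Yap1 at -0.546. With number 2 left out Mdm2 was at 0.093 and Myod1 at -0.002, with number 1 left out Cdkn1a was at 0.456, and with number 3 left out Trp63 was at 0.109. With limma-voom Cdkn1a was at 0.354. Leaving out each library in turn gave -1.67 to 0.319 for Trp63, -0.183 to 0.011 for Mdm2, -0.312 to 0.202 for Cdkn1a and -0.413 to 0.655 for Nanog. With 2 KO clones, genes at few counts are the least sure.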
